A study of Mus musculus with 14 samples.

Results

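This is a description of 7 genes of the macrophage response to bacterial products in mouse microglia, the resident macrophages of the brain. They are the acute-phase genes Saa3 and Lcn2, the itaconate-producing gene Acod1, and the scavenger receptor genes Msr1, Marco, Cd36 and Cd5l, 7 of the 41739 genes in the table. They were chosen by name for their levels under endotoxin, so their LPS to PBS differences are given as descriptions without a test. All 7 passed the filter on low values used for the fit (3 libraries or more reaching a TPM of 1), as did 18724 genes in all. Saa3, Marco and Cd5l passed only through their LPS libraries.

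RNA came from microglia isolated with magnetic beads (MACS) from mouse brain. All mice carried floxed Rheb alleles (Rheb F/F), Rheb being the small GTPase that activates the growth kinase complex mTORC1. Mice with these alleles alone are called WT. KO mice also carried Tmem119-cre ER, a Cre recombinase that tamoxifen switches on and that the microglial gene Tmem119 drives, so Cre and loss of Rheb cannot be told apart. At 8 weeks, after tamoxifen, mice received 1 intraperitoneal injection a day for 4 days, of PBS or of LPS (bacterial endotoxin) at 1.0 mg/kg. The 14 libraries were 3 WT PBS (WT_PBS_904, WT_PBS_913 and WT_PBS_914), 3 KO PBS (KO_PBS_911, KO_PBS_912 and KO_PBS_915), 4 WT LPS and 4 KO LPS (numbered 1 to 4 in each genotype, as in WT_LPS_3). Values below follow this order of libraries. TPM, transcripts per 1000000, is a level per gene length and per library.

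Serum amyloid A proteins and lipocalin-2 are secreted in the acute phase, the rapid change in protein output that follows infection: the former bind lipids and engage formyl peptide and Toll-like receptors, and the latter starves bacteria of iron by binding their siderophores. ACOD1 is a mitochondrial enzyme that turns the TCA cycle intermediate cis-aconitate into itaconate, a metabolite that restrains succinate dehydrogenase and modifies proteins such as KEAP1. Scavenger receptors are surface proteins of macrophages that take up modified lipoproteins, microbes and debris. MSR1 and MARCO are of class A, CD36 of class B, and CD5L is a secreted protein with scavenger receptor cysteine-rich domains made by tissue macrophages.

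Promoter sequences are shown for the 3 members with the lowest PBS levels for which a searched motif was present, and for Lcn2, the member with a high PBS level. RefSeq windows of 250 bases before to 50 after the start (GRCm38.p6) were found for 6 of the 7 members, and capitals mark the motif matches. Saa3 lies at chr7:46715627-46715926 (minus strand), Marco at chr1:120504975-120505274 (minus), Acod1 at chr14:103046762-103047061 (plus) and Lcn2 at chr2:32387690-32387989 (minus).
Saa3: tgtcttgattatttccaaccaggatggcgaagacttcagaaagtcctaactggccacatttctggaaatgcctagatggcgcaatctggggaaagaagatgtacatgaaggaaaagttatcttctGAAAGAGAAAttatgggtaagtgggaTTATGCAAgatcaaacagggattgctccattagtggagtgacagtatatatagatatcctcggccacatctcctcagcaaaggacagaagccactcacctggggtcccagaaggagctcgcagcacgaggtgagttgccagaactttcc
Marco: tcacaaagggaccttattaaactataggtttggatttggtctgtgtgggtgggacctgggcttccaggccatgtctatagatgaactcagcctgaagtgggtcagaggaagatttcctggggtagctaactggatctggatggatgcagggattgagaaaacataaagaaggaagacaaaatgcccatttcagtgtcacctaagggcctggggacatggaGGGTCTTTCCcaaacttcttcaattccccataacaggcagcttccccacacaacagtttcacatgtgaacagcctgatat
Acod1: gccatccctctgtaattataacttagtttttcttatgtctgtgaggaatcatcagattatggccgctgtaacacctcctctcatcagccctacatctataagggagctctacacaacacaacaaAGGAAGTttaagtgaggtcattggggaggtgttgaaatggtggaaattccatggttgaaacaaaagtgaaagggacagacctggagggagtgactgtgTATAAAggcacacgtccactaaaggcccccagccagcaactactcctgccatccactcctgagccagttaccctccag
Lcn2: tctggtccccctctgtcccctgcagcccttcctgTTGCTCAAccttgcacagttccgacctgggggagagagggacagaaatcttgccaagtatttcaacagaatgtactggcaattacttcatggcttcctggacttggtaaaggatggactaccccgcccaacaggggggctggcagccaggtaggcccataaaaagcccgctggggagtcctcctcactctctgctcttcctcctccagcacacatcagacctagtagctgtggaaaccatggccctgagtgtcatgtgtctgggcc

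Positions are counted from the start, with 7 motifs searched on both strands. The Saa3 window held an interferon-response element match (GAAA, any 2 bases, GAAA) at -125 to -116 and a C/EBP match (TTGCNNAA, on the opposite strand) at -99 to -92, which do not overlap. Marco held an NF-kB match (GGG, any 2 bases, TTTCC) at -30 to -21. Acod1 held an ETS match (AGGAAGT) at -126 to -120 and a TATA box (TATAAA) at -28 to -23, and Lcn2 a C/EBP match at -216 to -209. Neither the Cd36 nor the Cd5l window held any of the 7. Of the 32851 promoters in the table, 1.63% held the NF-kB letters, 10.8% the C/EBP letters, 3.44% the interferon-response letters, 9.35% the ETS letters and 13.6% the TATA box. The other letters searched, TTCNNNGAA (STAT, 8.30%) and TGANTCA (AP-1, 7.81%), were in none of the 6 windows. These matches describe the letters only.

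Several features set libraries apart. Reads recovered from the table ranged from 8.00 M (mega) in KO_LPS_4 to 32.3 M in WT_LPS_1, with 15.7 to 20.7 M under PBS. The design text describes female mice, but the 6 PBS libraries held the Y-linked transcript Ddx3y at 111 to 146 TPM and the 8 LPS libraries held Xist at 255 to 574 TPM, so sex and treatment cannot be told apart in any LPS to PBS value. The short RNA Gm23935 took 0.0566% to 0.248% of TPM under PBS and 4.04% to 15.4% under LPS. WT_PBS_914 and KO_LPS_3 were rich in pituitary markers, at sums of 90118 and 32654 TPM. The 7 choroid plexus markers summed to 10911 to 25960 TPM under PBS and 2291 to 14587 TPM under LPS. By limma, 7 were called lower in WT LPS and 6 in KO LPS, against 34.1% and 26.9% of all genes tested. With median-of-ratios scaling these counts were 6 and 1. The part of choroid plexus RNA in the levels of the 7 genes was not tested. The 10 microglia markers were detected in every library. Their sum was 27621 to 35541 TPM in WT PBS and 30043 to 31863 in KO PBS. Under LPS it was 18565 to 23156 TPM in WT and 13906 to 19356 in KO. Tmem119 differed in KO against WT by -0.70 on the log2 scale under PBS (adjusted p = 0.0389, limma) and by -1.04 under LPS (0.00857). Both calls were lost with the compared groups fitted alone (0.0697 and 0.083, limma). The PBS call was also lost with single libraries left out, as without KO_PBS_912 (0.148). Rheb in KO was lower than in WT under PBS by 0.79 on the log2 scale (adjusted p = 0.0163, limma), with means of 32.1 ± 2.39 TPM in WT and 18.2 ± 1.43 TPM in KO (SD, n = 3). That call was lost without WT_PBS_913 (adjusted p = 0.0612), WT_PBS_914 (0.0689), KO_PBS_911 (0.096) or KO_PBS_912 (0.0639). Under LPS Rheb was at 30.8 ± 3.83 and 22.7 ± 2.43 TPM (n = 4; log2 difference -0.42, adjusted p = 0.11), where median-of-ratios scaling gave a call (-0.51, adjusted p = 0.0406).

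Of the 7 genes, 6 had every LPS library above every PBS library of the same genotype in both genotypes, Cd36 being the exception. Saa3, Marco, Acod1 and Cd5l went from near 0 to between 59.3 and 4107 TPM, and Lcn2 and Msr1 from levels that were already measurable. As background, 8.45% of all genes tested had no overlap in that direction in WT and 9.52% in KO. The members were chosen on this contrast, so nothing is read from their count.

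**Figure D1:**
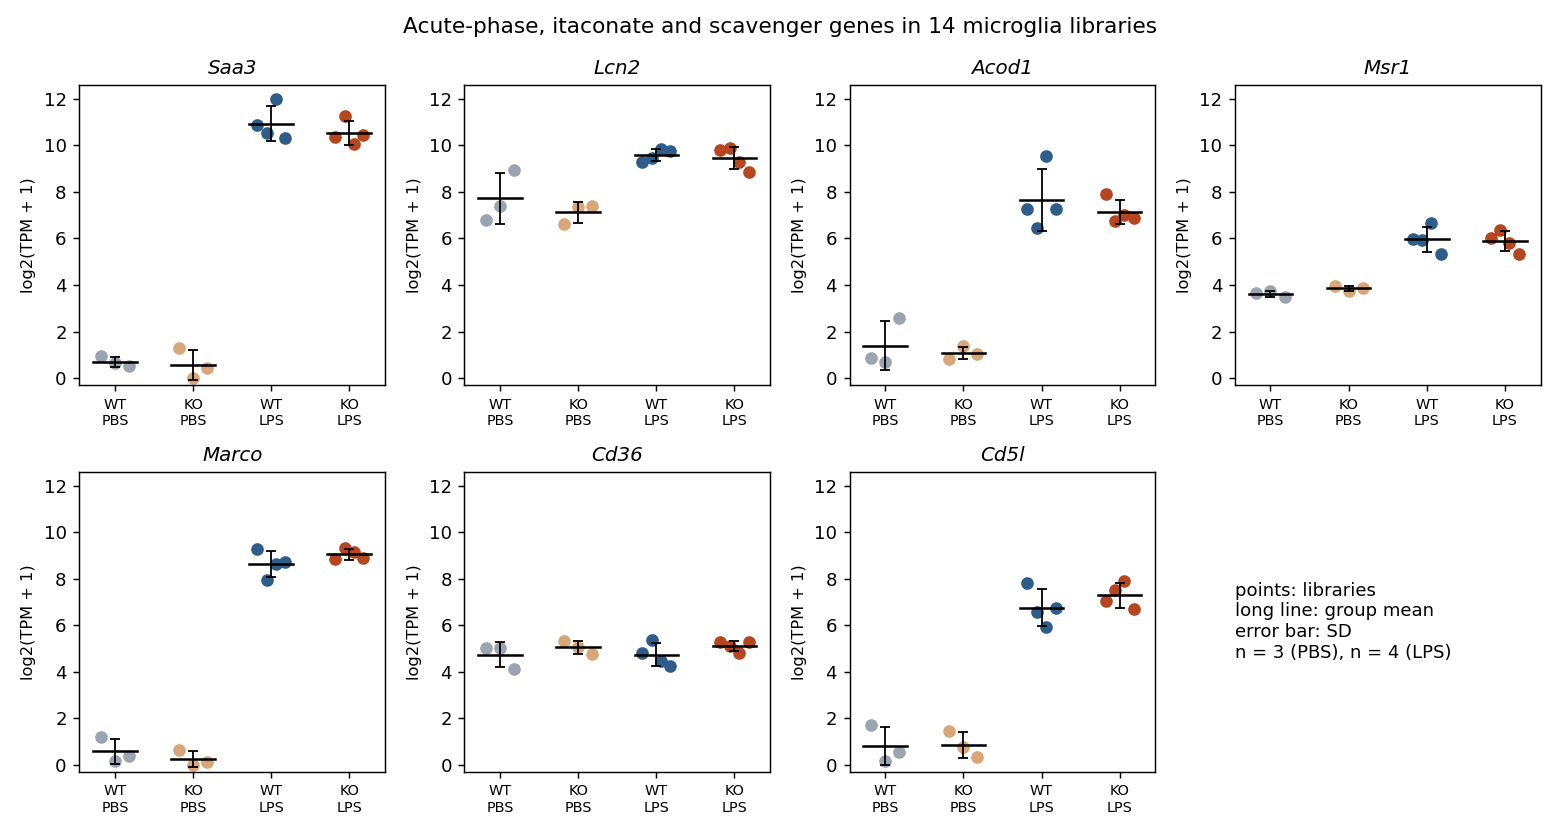
Level of each of the 7 genes in the 14 libraries as log2(TPM + 1), by genotype and treatment; points are libraries, long lines group means and error bars the SD (n = 3 under PBS, n = 4 under LPS). In 5 panels all LPS points lie above all PBS points; in the Lcn2 panel they do so only within a genotype, and in the Cd36 panel they overlap.

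Saa3, an acute-phase gene expressed outside the liver by macrophages and other cells, was at 0.929, 0.547 and 0.437 TPM in WT PBS and at 1.42, 0 and 0.345 TPM in KO PBS. These values rest on 0 to 18 reads a library, and the 0 of KO_PBS_912 allows up to 0.266 TPM (3 reads). Under LPS it was at 1888, 1485, 4107 and 1290 TPM in WT libraries 1 to 4 and at 1308, 2455, 1064 and 1411 TPM in KO libraries 1 to 4. WT_LPS_3 stood highest, and every LPS library lay far above every PBS library: the lowest LPS value was 1389 times the highest PBS value in WT and 752 times in KO. The difference of mean log2(TPM + 1) was 10.24 in WT and 9.97 in KO, rank 1 of 18724 genes in each genotype. By mean TPM, Saa3 was 40th of all genes in WT LPS and 66th in KO LPS.

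Lcn2, the siderophore-binding lipocalin, was at 111, 168 and 495 TPM in WT PBS and at 97.2, 162 and 169 TPM in KO PBS. WT_PBS_914 stood apart from the other 5 PBS libraries. Under LPS it was at 622, 700, 914.7 and 876 TPM in WT and at 886, 941, 620 and 467 TPM in KO. Within each genotype the LPS libraries lay above the PBS libraries, although KO_LPS_4 lay below WT_PBS_914. In WT the lowest LPS value was only 1.26 times that of WT_PBS_914, against 2.76 times the highest PBS value in KO. The log2 difference was 1.87 in WT and 2.33 in KO, ranks 326 and 178. Leaving out WT_PBS_914 gave 2.48 in WT.

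Lcn2 is also a granule protein gene of neutrophils, whose markers were measured beside it. The 14 neutrophil markers, none of them at 0 in any library, summed to 6142 to 9072 TPM in 5 PBS libraries, to 24440 TPM in WT_PBS_914, and to 10225 to 26027 TPM under LPS. S100a8 and S100a9 made up 60.7% to 81.2% of this sum. By limma, 3 of the 14 markers were called higher and 0 lower in WT LPS, with a median log2 difference of 0.27. In KO LPS they were 6 and 0, with a median of 1.35. Over all genes tested, 7.95% were called higher and 34.1% lower in WT, and 7.82% and 26.9% in KO, shares that depended on scaling. In WT 8 of the 14 marker differences were positive, and in KO 13. Per 1000 TPM of these markers, Lcn2 was at 17.4, 19.8 and 20.2 TPM in WT PBS. In KO PBS it was at 15.8, 18.5 and 18.6 TPM. On this scale WT_PBS_914 (20.2) lay next to WT_PBS_913 (19.8). Under LPS the same ratio was 60.8, 63.1, 39.7 and 41.5 in WT and 34.0, 38.4, 41.1 and 37.3 in KO, above every PBS value in both genotypes. KO and WT overlapped in this ratio under LPS (exact two-sided permutation p = 0.0571, 4 libraries against 4) and under PBS (p = 0.3, 3 against 3; 0.1 is the smallest possible). The ratio was chosen after its values were seen. It depends on which markers are summed, as these did not move together. Camp was at 890 TPM in WT_PBS_914 and 130 TPM in WT_LPS_3, while S100a8 was at 5875 and 7116 TPM. The part of neutrophil RNA in the Lcn2 level, under PBS or LPS, was not tested. In bulk RNA, fewer cells of a type and less RNA per cell cannot be told apart.

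**Figure D2:**
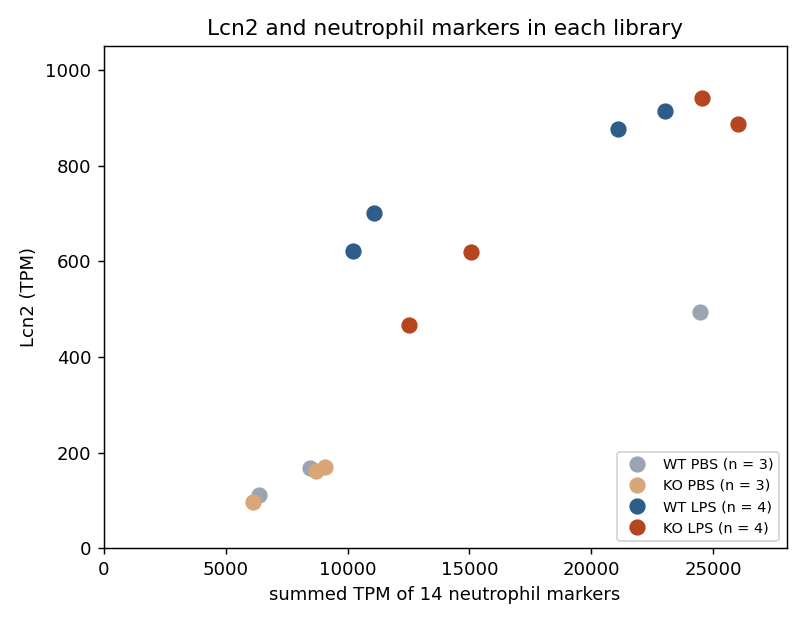
Lcn2 (TPM) against the summed TPM of 14 neutrophil markers in each of the 14 libraries, coloured by group (n = 3 under PBS, n = 4 under LPS). WT_PBS_914, at 24440 TPM of markers and 495 TPM of Lcn2, lies to the right of the other PBS libraries, and below the LPS libraries with similar marker sums.

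Acod1, the itaconate-making enzyme, was at 0.839, 0.634 and 5.07 TPM in WT PBS and at 0.781, 1.58 and 1.03 TPM in KO PBS. Of the PBS libraries, WT_PBS_914 again held the highest value, from 70 reads against 7 to 18 in the other 5. Under LPS Acod1 was at 151, 87.4, 750 and 155 TPM in WT and at 237, 106, 127 and 116 TPM in KO. WT_LPS_3 lay far above the other WT LPS libraries, and KO_LPS_1 above the other KO ones. The lowest LPS value was 17.3 times the highest PBS value in WT and 66.8 times in KO, and the log2 difference was 6.24 and 6.05, rank 5 in both genotypes.

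Msr1, the class A receptor for modified lipoproteins, was at 11.6, 12.3 and 10.1 TPM in WT PBS and at 14.7, 12.5 and 13.6 TPM in KO PBS. Under LPS it was at 61.5, 59.8, 100.2 and 39.6 TPM in WT and at 64.3, 80.8, 55.0 and 39.0 TPM in KO. All LPS libraries were higher than all PBS libraries, by 3.23 times at the closest in WT and 2.66 times in KO. The log2 difference was 2.35 in WT and 2.02 in KO, ranks 174 and 253.

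Marco, a class A receptor for bacteria and particles, was at 1.26, 0.123 and 0.296 TPM in WT PBS and at 0.532, 0 and 0.0933 TPM in KO PBS, on 0 to 11 reads a library. The 0 of KO_PBS_912 allows up to 0.360 TPM. Under LPS it was at 622, 245, 391 and 422 TPM in WT and at 456, 635, 567 and 469 TPM in KO. The 2 treatments were far apart: the lowest LPS value was 195 times the highest PBS value in WT and 856 times in KO. The log2 difference was 8.07 in WT, rank 3, and 8.79 in KO, rank 2.

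Cd5l, the secreted macrophage protein, was at 2.27, 0.117 and 0.466 TPM in WT PBS and at 1.71, 0.681 and 0.265 TPM in KO PBS, on 1 to 21 reads. Under LPS it was at 224, 93.4, 59.3 and 107 TPM in WT and at 131, 180, 239 and 102 TPM in KO. WT_LPS_3, which was highest in Saa3 and Acod1, was lowest in Cd5l. The lowest LPS value was 26.1 times the highest PBS value in WT and 59.7 times in KO, with log2 differences of 5.95 and 6.44, ranks 6 and 4.

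Cd36, the class B receptor for fatty acids and oxidised lipoproteins, was at 31.7, 31.8 and 16.2 TPM in WT PBS and at 38.8, 32.7 and 25.9 TPM in KO PBS. Under LPS it was at 26.7, 40.8, 21.2 and 18.2 TPM in WT and at 37.5, 33.4, 27.3 and 38.1 TPM in KO. Treatments overlapped in both genotypes. The log2 difference was 0.00 in WT and 0.07 in KO, and without WT_PBS_914 that of WT was -0.31.

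Markers of other myeloid cells were measured beside these rises. Summed monocyte markers (11 genes) were at 479 to 1213 TPM under PBS and, without overlap, at 1725 to 3032 TPM under LPS. By limma, 10 of 11 were called higher in each genotype, against 7.95% of all genes tested in WT and 7.82% in KO. The 10 markers of border macrophages, which line the vessels and meninges, overlapped between treatments at 477 to 1201 TPM under PBS and 478 to 1014 TPM under LPS. Of the 8 markers of macrophages of other organs, the Kupffer cell gene Clec4f stood at 0.202 TPM or less and the peritoneal macrophage gene Gata6 at 0.204 TPM or less in every library. Sums of this list overlapped between treatments, at 94.9 to 237 TPM under PBS and 106 to 346 TPM under LPS. By limma, 3 of the 6 markers tested were called higher and 1 lower in WT, and 4 and 0 in KO. The shares called lower over all genes tested were 34.1% in WT and 26.9% in KO. Spic, a transcription factor of red pulp macrophages, was at 0.371 to 1.24 TPM under PBS and 7.19 to 27.1 TPM under LPS. Vsig4, a complement receptor, was at 0.895 to 3.87 and 6.44 to 20.5 TPM. The carbonic anhydrase gene Car4 fell in WT (log2 difference -1.48, adjusted p = 0.0223, limma), at 31.2 to 97.2 TPM under PBS and 10.98 to 45.5 TPM under LPS over both genotypes. Its call was lost with median-of-ratios scaling (adjusted p = 0.0633, limma) and without WT_PBS_904 (0.0664), WT_PBS_913 (0.0726), WT_LPS_3 (0.0614) or WT_LPS_4 (0.0538). The genes named from this list were chosen after their values were seen. The part of these cells in the levels of Saa3, Acod1, Msr1, Marco and Cd5l was not tested.

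Under LPS the order of mean levels in WT was Saa3 (2192 ± 1300 TPM, SD, n = 4), Lcn2 (778 ± 140), Marco (420 ± 156), Acod1 (286 ± 311), Cd5l (121 ± 71.7), Msr1 (65.3 ± 25.3) and Cd36 (26.7 ± 10.02). In WT the libraries of Saa3 lay above all those of Lcn2, and every later pair of neighbours overlapped. Without WT_LPS_3 the WT means were 131 ± 37.9 TPM for Acod1 and 142 ± 71.9 TPM for Cd5l (SD, n = 3), which turns their order. In KO the order was Saa3 (1560 ± 614 TPM, n = 4), Lcn2 (729 ± 224), Marco (531 ± 84.7), Cd5l (163 ± 59.9), Acod1 (147 ± 60.9), Msr1 (59.8 ± 17.5) and Cd36 (34.1 ± 4.96). There Lcn2 and Marco overlapped, as did Cd5l and Acod1, and the other neighbours did not.

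The 8 LPS libraries were compared with each other gene by gene. The highest of the 8 LPS libraries over the lowest was 8.58 times for Acod1, 4.03 for Cd5l, 3.86 for Saa3, 2.59 for Marco, 2.57 for Msr1, 2.24 for Cd36 and 2.02 for Lcn2. Within a group this ratio was as low as 1.39 for Marco and Cd36 in KO LPS, whose SD of log2(TPM + 1) (0.23 and 0.21) was below the median of all genes (0.27), and 1.47 for Lcn2 in WT LPS. In WT LPS the SD of log2(TPM + 1) of Acod1 was 1.33, larger than that of 98.3% of genes tested. The matching shares were 93.5% for Cd5l, 92.5% for Saa3, 85.8% for Marco, 85.2% for Msr1, 82.0% for Cd36 and 57.1% for Lcn2. In KO LPS they were lower for 6 genes, at 78.7% for Acod1, 79.3% for Cd5l, 78.1% for Saa3, 42.3% for Marco, 71.0% for Msr1 and 39.7% for Cd36, and higher for Lcn2, at 74.5%. Whether the spread differs between genotypes was not tested.

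No single library was high throughout. WT_LPS_3 was the highest LPS library in Saa3, Acod1 and Msr1 and the lowest in Cd5l. It also had the highest sum of monocyte markers, 3032 TPM against 1725 to 2388 in the other 7 LPS libraries, and the lowest of choroid plexus markers, 2291 against 3712 to 14587 TPM. KO_LPS_2 was highest in Lcn2 and Marco, KO_LPS_3 highest in Cd5l and lowest in Saa3, WT_LPS_2 highest in Cd36 and lowest in Acod1 and Marco, WT_LPS_4 lowest in Cd36, and KO_LPS_4, the shallowest library, lowest in Lcn2 and Msr1. The part of cell makeup or depth in these orders was not tested.

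**Figure D3:**
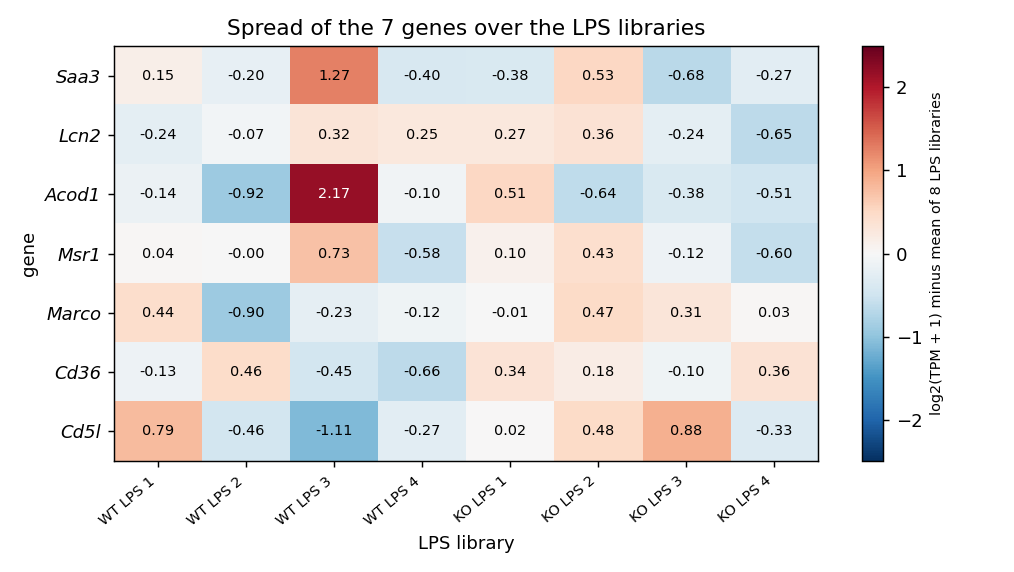
Difference of each LPS library from the mean of the 8 LPS libraries in log2(TPM + 1), for the 7 genes (rows) and libraries (columns, WT and KO 1 to 4); red is above and blue below that mean. WT_LPS_3 reaches 2.17 for Acod1 and 1.27 for Saa3 but -1.11 for Cd5l.

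KO was compared with WT within each treatment. The rule for the genes did not name this contrast, but they were chosen with earlier results of these data known. None of the 7 was called in KO against WT under PBS, where 1.02% of all genes tested were called. Saa3, Marco and Cd5l entered this fit only through their LPS libraries. Their PBS levels rested on 0 to 21 reads a library, so their PBS tests say little about genotype. The log2 differences were -0.13 for Saa3, -0.60 for Lcn2, -0.32 for Acod1, 0.24 for Msr1, -0.32 for Marco, 0.32 for Cd36 and 0.04 for Cd5l, with adjusted p-values of 0.54 to 0.986 (limma, Benjamini-Hochberg over 18724 genes). Msr1 was the member without overlap, spanning 10.1 to 12.3 TPM in WT while KO spanned 12.5 to 14.7 TPM (exact two-sided permutation p = 0.1, the smallest possible). Among all genes tested, 25.8% had no overlap in either direction there. For Lcn2 the 95% confidence interval ran from -1.55 to 0.36, and for Acod1 from -1.75 to 1.11. Without WT_PBS_914 these differences turned to 0.02 and 0.28, and no call was made.

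Under LPS none of the 7 was called either, against 0.497% of all genes tested, and KO and WT libraries overlapped in each of the 7 (6.18% of all genes did not overlap). Saa3 was at 2192 ± 1300 TPM in WT and 1560 ± 614 in KO, a log2 difference of -0.41 with a 95% confidence interval of -1.19 to 0.38 (adjusted p = 0.721, limma). Acod1 differed by -0.51 (-1.75 to 0.73, adjusted p = 0.782). Lcn2 and Msr1 differed by -0.13 and -0.10. The other scavenger genes were on the positive side: Marco at 0.40 (-0.18 to 0.99, adjusted p = 0.61), Cd36 at 0.39 (-0.15 to 0.94, 0.593) and Cd5l at 0.52 (-0.40 to 1.44, 0.687). Exact permutation p-values ran from 0.2 for Marco to 0.771 for Msr1. Without WT_LPS_3 the Saa3 difference was -0.05 and that of Acod1 turned to 0.13. The intervals reach past 2-fold lower in KO for Saa3 and Acod1 and past 2-fold higher for Cd5l, so the test does not show that genotypes had the same levels.

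**Figure D4:**
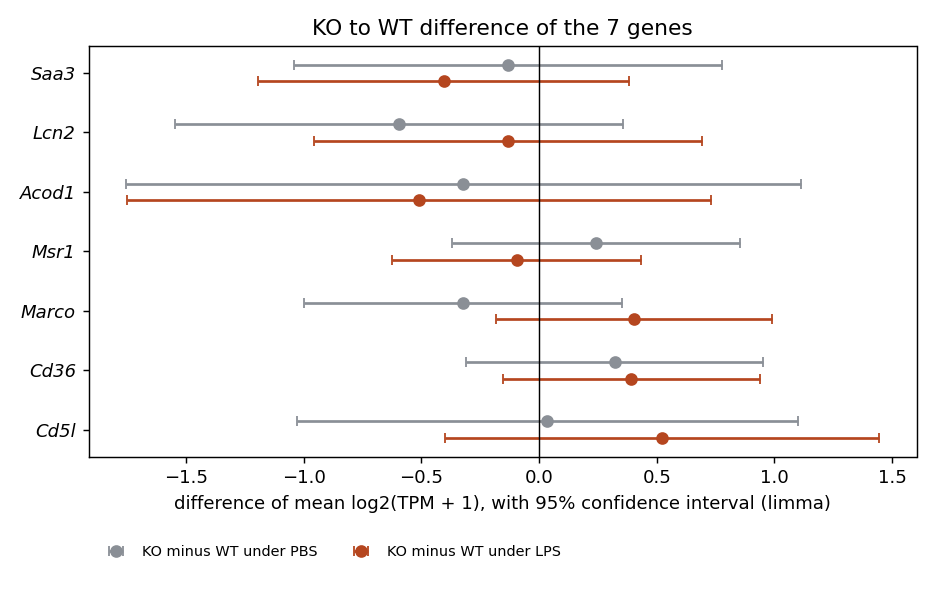
KO minus WT difference of mean log2(TPM + 1) for each of the 7 genes, under PBS (grey, 3 libraries a group) and LPS (red, 4 a group), with 95% confidence intervals from the limma fit. All 14 intervals include 0, and the widest are those of Acod1.

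The KO to WT difference did not differ by test between treatments for any of the 7. The largest gap was that of Marco, at 0.73 on the log2 scale (-0.17 to 1.62, adjusted p = 0.59, limma), from -0.32 under PBS to 0.40 under LPS, where the PBS levels rest on few reads. Over all genes tested, 0.0% were called for this interaction, with 1780 at an unadjusted p under 0.05, and voom on the recovered reads also called 0.

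Genes of the same pathways were taken from 5 lists. LPS to PBS calls over all genes depended on scaling: in WT 1488 genes (7.95%) were higher and 6378 (34.1%) lower, and in KO 1465 (7.82%) and 5029 (26.9%). With median-of-ratios scaling the median log2 difference over all genes was 0.01 in WT (-0.28 before) and 0.00 in KO (-0.22 before), and the calls were 3023 higher and 2466 lower in WT and 2331 and 1920 in KO. With voom the splits were 1996 and 4742 in WT and 1982 and 2442 in KO. Sex runs with treatment in all of these.

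Among the other acute-phase genes, 10 of 19 measured were called higher and 1 lower in WT LPS, and 11 and 0 in KO LPS, with median log2 differences of 1.10 and 1.17. Hp, encoding haptoglobin, which binds free haemoglobin, rose in WT (mean 180 TPM under PBS, 1223 under LPS) and in KO (99.1 and 1283 TPM) (log2 differences 2.94 and 3.66). The metalloreductase gene Steap4 rose by 3.98 and 4.14, and Cd14, the LPS co-receptor, by 1.11 and 1.17. Of 13 receptors and regulators of the acute phase, 8 were called higher and 2 lower in WT and 9 and 3 in KO. Cebpb, a transcription factor that binds C/EBP sites, rose by 3.77 and 2.89. Fpr2, a receptor for serum amyloid A, rose by 3.0 and 4.16, and Socs3, a feedback inhibitor of STAT3 signalling, by 2.82 and 1.83.

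Other scavenger receptors did not move as a block. Of 19 measured, 3 were called higher and 5 lower in WT and 3 and 6 in KO, but with median-of-ratios scaling 5 were higher and 0 lower in WT and 5 and 2 in KO. Cxcl16, a scavenger receptor and chemokine, rose by 1.82 in WT and 1.71 in KO, and Axl, a receptor for apoptotic cells, by 0.94 and 0.99. Of 14 partners in lipid uptake, 5 were called higher and 3 lower in WT and 4 and 5 in KO, against 7 and 2, and 6 and 2, with the other scaling. Nr1h3, encoding the oxysterol receptor LXR alpha, rose by 1.97 and 2.72. Apoe, a lipid carrier, differed by 0.63 (adjusted p = 0.105, limma) and 0.33 (0.425). With median-of-ratios scaling Apoe was called in WT (0.97, adjusted p = 0.0229, limma). From the same list, Rxra was called lower in WT (-0.75, adjusted p = 0.000268, limma). Abca1 and Abcg1 were not called in WT, at 0.08 and -0.20. Rxra, Abca1 and Abcg1 were named after their values were seen.

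Genes that make, break down or respond to itaconate were also mixed, with 4 of 28 called higher and 11 lower in WT and 3 and 9 in KO, and 9 and 3, and 7 and 4, with median-of-ratios scaling. Hmox1, a haem-degrading target of NRF2, rose by 2.0 and 1.95, and the cystine transporter gene Slc7a11 by 1.11 and 1.00.

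In KO against WT, 0 genes of the 5 lists were called under either treatment. The gene with the smallest p was taken from each list. Among these genes, the smallest adjusted p-values (limma) under PBS were those of Idh2 and Lrp1. Idh2, a mitochondrial isocitrate dehydrogenase, had a log2 difference of 0.53 (adjusted p = 0.0581), and Lrp1, an endocytic receptor, of 0.40 (0.0645). Idh2 was called under PBS with median-of-ratios scaling (adjusted p = 0.0443, limma), with the filter at TPM 5 (0.0462) and rescaled without Gm23935 (0.0417). Under LPS the genes so taken with the smallest adjusted p-values (limma) were Cebpd, Ppard and Scarb2. Cebpd, another C/EBP factor, differed by -0.45 (adjusted p = 0.0939) and Ppard, a lipid-sensing nuclear receptor, by -0.41 (0.0939). Scarb2, a lysosomal membrane protein, differed by -0.43 (0.115). Abca1, from the same list as Ppard, was at 0.111. With median-of-ratios scaling Ppard, Scarb2 and the cholesterol exporter gene Abca1 were called lower under LPS (adjusted p = 0.0369, 0.0162 and 0.0445, limma). With voom on the recovered reads, the calls under LPS were Scarb2 (adjusted p = 0.0236), Abca1 (0.0403) and Idh2 (0.0409), and under PBS Idh2 (0.0338).

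The genes with profiles most like those of the members over the 14 libraries were found by the root mean square difference of centred log2(TPM + 1), among 11942 genes. For Lcn2 they were Lrg1 (0.285), Il18rap (0.302) and Trem3 (0.304). Acod1 was closest to the chemokine gene Cxcl13 (0.698), Il1b (0.895) and the cholesterol hydroxylase gene Ch25h (0.976), and Msr1 to the complement factor gene Cfp (0.198), Aoah, which encodes an enzyme that inactivates LPS (0.227), and Ehd1 (0.257). Cd5l was closest to Ackr1 (0.727), Serpina3f (0.989) and Treml4 (1.00), Serpina3f having close relatives that can share its reads, and Cd36 to Anxa3 (0.228), Trmt11 (0.235) and Trmo (0.248). Saa3 and Marco were near each other (1.01), and the gene closest to Marco was Xist (0.451), the transcript that marks female libraries. A profile near 0 under PBS and high under LPS is thus shared with a transcript that differs by sex.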

How the data were processed

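The 14 libraries hold RNA of MACS-isolated microglia, extracted with TRIZOL and prepared with a universal kit for Illumina per the labels' protocols. Strand is not given in the sources used here. The submitters' processing notes name featureCounts 2.0.1, STAR 2.7.10b, cutadapt 4.4 and FastQC 0.11.9, and the build hg38, while the gene IDs are those of mouse. The authors deposited TPM per gene, reads scaled by gene length to a total of 1000000 a library. Genes from near-identical or overlapping loci can share reads.

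Reads were recovered from TPM and GENCODE M21 exon lengths. Within 0.02 reads, 98.4% to 98.6% of values came out whole, as did all 7 members, and intervals for reads cover counting error only. Depth is given in the report. For log2(TPM + 1), limma 3.58.1 (R 4.3.3) was fitted to 4 group means over all 14 libraries with an intensity trend, for 18724 genes reaching a TPM of 1 in 3 libraries or more. Calls had a Benjamini-Hochberg adjusted p under 0.05, and "rose" marks such calls. The pseudocount makes differences of low genes smaller than ratios. Single values were tested by exact two-sided permutation. No label ties a library to its own animal, and the spread that p-values rest on may be technical.

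The members and lists were chosen with earlier results of these data known. From each list were named up to 3 genes with the largest LPS mean or difference, and the smallest p for genotype where none was called, of which the text gives part. Rheb and Tmem119 were always named. Alternatives were pseudocounts of 0.1 and 5, no filter, a filter at TPM 5, median-of-ratios scaling, no trend, compared groups alone, a replicate block and each library left out; chosen after seeing the data were leaving out WT_PBS_914 and KO_LPS_3, rescaling without Gm23935, and voom on the recovered reads. The fit was also run on simulated data with the same relative spread set for every gene. Its outcome is not given and says little on power for genes as variable as Acod1.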

Additional observations from a re-analysis of the deposited data

Results flagged for a closer look

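In groups of 4 libraries, the gap of the highest or lowest library to its neighbour was compared with the range of the group. This was done on TPM rather than log2(TPM + 1), over 14 member groups. Chance marks about 1 in 20 if values are normally distributed, which was not tested here. In 2 of the 14 groups, both for Acod1, a library stood apart on this scale. The gaps were not looked at on the log2 scale. In WT LPS, WT_LPS_3 was at 750 TPM, and the others at 87.4 to 155 TPM. In KO LPS, KO_LPS_1 was at 237 TPM, and the others at 106 to 127 TPM. Summed monocyte markers were at 3032 TPM in WT_LPS_3 and 2383 TPM in KO_LPS_1. They were at 2388 TPM in KO_LPS_2, where Acod1 was the lowest of KO LPS (106 TPM). The part of these markers in the Acod1 level was not tested.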

How the results depend on the processing

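None of the 7 genes was called for genotype or the interaction under any setting run. With compared groups alone, 4 of the 7 entered the PBS fit. Over all genes, KO to WT calls under PBS were 191, and 79 without a filter, 297 rescaled without Gm23935, 65 without the trend, 18 without WT_PBS_914 and KO_LPS_3, and 8 to 49 with 1 library left out. Median-of-ratios scaling gave 88 higher and 42 lower, against 149 and 42. Under LPS calls were 93, and 32 without a filter, 141 at TPM 5, 173 with median-of-ratios scaling (27 higher and 146 lower, against 48 and 45), 163 rescaled, 47 without the trend, 0 with compared groups alone, 8 without both libraries, 315 with voom, and 18 to 100 with 1 left out. A replicate block gave 0. Same-numbered libraries correlated at -0.09 to 0.06 in 4 pairs, and 0 of 4 WT libraries correlated best with their own number. A correlation over all genes tested cannot show a pairing that moves few genes, so whether the numbers pair libraries was not settled. The interaction gave 0 calls, 3 at a pseudocount of 0.1 and without both libraries, 2 with median-of-ratios scaling, 1 at a pseudocount of 5, without a filter, rescaled or without the trend, and 0 to 2 with 1 left out. LPS to PBS calls in KO were 6494, and 4251 with median-of-ratios scaling.

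Small differences turned sign. Without both libraries the PBS differences were 0.021 for Lcn2, 0.28 for Acod1 and -0.092 for Cd5l, the Lcn2 interaction -0.094, and Cd36 LPS to PBS in WT -0.31. Cd5l under PBS was -0.0062 at a pseudocount of 5, and the Saa3 interaction 0.40 at 0.1 and 0.75 with voom. With 1 library left out, PBS differences ranged from -0.49 to 0.15 for Saa3, -1.05 to 0.021 for Lcn2, -0.67 to 0.28 for Acod1 and -0.29 to 0.49 for Cd5l. LPS differences ranged from -0.27 to 0.062 for Lcn2, -0.90 to 0.13 for Acod1 and -0.31 to 0.13 for Msr1. The interaction ranged from -0.56 to 0.083 for Saa3, -0.15 to 0.92 for Lcn2, -0.79 to 0.45 for Acod1 and -0.084 to 0.38 for Cd36, and Cd36 LPS to PBS from -0.31 to 0.16 in WT and -0.075 to 0.21 in KO. The cause was not tested. Near 0 the pseudocount sets the size: the Saa3 difference in WT was 11.43 at 0.1 and 8.45 at 5.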
